A study of Mus musculus with 9 samples.

Results

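The TNF superfamily consists of ligands, mostly trimeric proteins held in the membrane or shed from it, and of receptors that bind them through cysteine-rich repeats. Receptors with a death domain can start apoptosis or necroptosis, receptors that bind TRAF adaptors switch on NF-kappa-B and MAP kinases, and decoy receptors bind a ligand without passing on a signal. In macrophages the family is best known for TNF and its receptors TNFR1 and TNFR2, and for ligands that macrophages offer to T cells and B cells. The genes described here carry a symbol made of Tnfsf (ligand) or Tnfrsf (receptor) and a number. Leaving aside Tnfrsf11a, which is not reported here, the deposited tables held 30 of them, 11 ligands and 19 receptors, among 16200 genes in all.

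PolyA RNA was sequenced from wild-type mouse bone marrow-derived macrophages in 3 groups of 3 libraries: cells treated with IL-27, cells treated with IL-4 and untreated cells. All had been grown for 6 days in medium with 10% supernatant of L929 cells, a fibroblast line whose secreted CSF1 drives macrophage growth, so all groups had met that supernatant. The labels give 100 ng/ml IL-27 for 6 h and 20 ng/ml IL-4 for 12 h, so IL-27 and IL-4 differed in dose and in time, and they do not state whether the IL-27 cells had also been given IL-4. They name no sex, age or strain. Nothing in them tells whether replicates are different mice or cultures, and p-values then reflect only how far these libraries scatter, which may be a technical spread.

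Libraries held 34577188 to 37951827 gene counts. Levels are counts scaled to library size with TMM factors (CPM), and a gene is called where edgeR's quasi-likelihood test gave an adjusted p (Benjamini-Hochberg over all 12587 genes tested) under 0.05. Fold changes are IL-27 over untreated, IL-4 over untreated and IL-27 over IL-4, each with its standard error on the log2 scale. The first and the second share the untreated libraries. Macrophage markers such as Csf1r, Cd68 and Lyz2 were abundant, all 7 listed markers exceeding 1 CPM, with summed levels of 24049 to 26107 CPM in IL-27, 14443 to 18044 CPM in IL-4 and 22739 to 31418 CPM in untreated libraries. Lyz2 made up most of these sums, and the other markers did not share an order. Csf1r averaged 1414, 2314 and 2728 CPM in IL-27, IL-4 and untreated libraries. In the same order Adgre1 averaged 551, 783 and 877 CPM, Mertk 91.5, 119 and 206 CPM and Itgam 1245, 1529 and 1421 CPM. All of these were lowest in IL-27. Cd68 hardly differed (1586, 1559 and 1586 CPM), and Fcgr1 was lowest in IL-4 (69.1, 32.6 and 87.2 CPM). The part of the macrophage markers in the results on the family was not tested. Untreated replicate 2 and IL-4 replicate 1 stood apart from the other libraries of their groups: pairs that held 1 of them had a chi-square per gene of 96.3 to 121, against 5.53 to 9.11 for all other pairs within groups. Where the call of a named member changes without this pair, both values are given.

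Of the 30 genes, 24 had enough counts for the test, and 17 averaged at least 1 CPM over all 9 libraries: 12 receptors and 5 ligands. The 17 are called well measured here. The member just above that limit was Tnfsf15, with group means of 2.39, 0.356 and 1.17 CPM in IL-27, IL-4 and untreated libraries. It passed the limit only through its IL-27 libraries. Tnfsf8, at 1.70, 0.259 and 0.204 CPM, was the member just below the limit.

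Promoter letters are shown for the well-measured members that were called in at least 1 comparison and have a matched promoter. RefSeq promoters of build GRCm38.p6, which is not the build GRCm39 that the submitters' processing notes name, were matched for 23 of the 30 genes, with 27 start sites, and for 11 of the 17 well-measured ones, 7 of them called. The 250 bases before each start were searched on both strands for TTCNNNGAA, the GAS letters, which STAT3 can bind, for TTCNNNNGAA, the spacing favoured by STAT6, and for GAAANNGAAA, the ISRE core bound by interferon-activated factors. STAT3 is among the factors that IL-27 activates, and STAT6 is the main factor of IL-4 signalling. Capitals mark these 3 letter patterns, and each sequence is written in the direction of transcription and ends at the base before the start.

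Of these 7, the 3 that held a match are given first:
Tnfrsf1b, chr4:145246871-145247120, minus strand: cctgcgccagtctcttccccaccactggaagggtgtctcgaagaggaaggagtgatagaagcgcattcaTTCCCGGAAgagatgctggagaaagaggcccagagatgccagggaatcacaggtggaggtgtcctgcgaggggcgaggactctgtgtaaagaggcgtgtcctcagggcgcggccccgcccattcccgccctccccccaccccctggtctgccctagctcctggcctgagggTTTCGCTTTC
Tnfrsf14, chr4:154928078-154928327, minus strand: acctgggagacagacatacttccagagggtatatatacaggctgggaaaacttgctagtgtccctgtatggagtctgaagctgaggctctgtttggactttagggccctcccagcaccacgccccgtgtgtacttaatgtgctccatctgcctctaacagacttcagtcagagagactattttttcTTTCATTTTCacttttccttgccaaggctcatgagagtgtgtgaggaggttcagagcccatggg
Tnfsf13b, chr8:10006383-10006632, plus strand: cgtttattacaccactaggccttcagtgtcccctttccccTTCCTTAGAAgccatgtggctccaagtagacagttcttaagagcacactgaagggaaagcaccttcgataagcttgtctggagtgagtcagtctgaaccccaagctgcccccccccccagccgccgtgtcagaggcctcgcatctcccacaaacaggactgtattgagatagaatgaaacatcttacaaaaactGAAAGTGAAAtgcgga
The other 4, among them genes called higher and genes called lower, held none of the 3 patterns in this window:
Tnfrsf12a, chr17:23677450-23677699, minus strand: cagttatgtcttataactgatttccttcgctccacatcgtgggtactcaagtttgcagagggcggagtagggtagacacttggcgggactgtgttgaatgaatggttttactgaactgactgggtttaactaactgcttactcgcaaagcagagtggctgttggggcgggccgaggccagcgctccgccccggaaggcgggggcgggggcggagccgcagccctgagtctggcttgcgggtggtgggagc
Tnfrsf23, chr7:143685876-143686125, minus strand: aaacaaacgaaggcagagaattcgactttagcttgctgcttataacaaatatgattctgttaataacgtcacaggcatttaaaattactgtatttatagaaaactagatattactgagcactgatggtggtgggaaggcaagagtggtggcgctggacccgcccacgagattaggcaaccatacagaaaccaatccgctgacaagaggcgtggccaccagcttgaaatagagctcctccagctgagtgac
Tnfrsf13b, chr11:61126505-61126754, plus strand: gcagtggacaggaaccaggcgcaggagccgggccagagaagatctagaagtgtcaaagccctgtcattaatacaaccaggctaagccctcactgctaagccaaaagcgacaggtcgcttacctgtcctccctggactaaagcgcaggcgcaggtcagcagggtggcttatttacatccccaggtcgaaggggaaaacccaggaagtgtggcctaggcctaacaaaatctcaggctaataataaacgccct
Tnfsf15, chr4:63745060-63745309, minus strand: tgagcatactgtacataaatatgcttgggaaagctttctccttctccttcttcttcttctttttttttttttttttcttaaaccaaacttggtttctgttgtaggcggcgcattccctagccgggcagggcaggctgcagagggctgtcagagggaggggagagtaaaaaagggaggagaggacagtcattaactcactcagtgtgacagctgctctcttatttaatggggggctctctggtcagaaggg

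In Tnfrsf1b the GAS letters ended 172 bases before the start and the ISRE letters ended at the base before it. The ISRE letters of Tnfrsf14 ended 54 bases before the start. In Tnfsf13b the letters with the STAT6 spacing ended 200 bases and the ISRE letters 6 bases before the start printed. At its other start, not printed, the STAT6 spacing ended 34 bases before the start and the window held no ISRE letters. GAS letters stood in 5 of the 27 member promoters and in 7.02% of 32851 promoters of all genes, the STAT6 spacing in 2 of 27 and in 5.85%, and the ISRE letters in 4 of 27 and in 2.98%. Of the 12 promoters of well-measured members, 2 held GAS letters, 2 the STAT6 spacing and 3 the ISRE letters. The windows were also searched for AP-1 letters (TGANTCA), found in 5 of 27 and in 6.75%, and for a kappa-B consensus, found in 3 of 27 and in 7.25%. Both promoters with the STAT6 spacing belong to Tnfsf13b, whose 2 start sites have overlapping windows that share the same letters. A match describes letters and is no measured binding site.

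The abundance of the family was carried by the TNF receptors. Per gene length, in the deposited FPKM, Tnfrsf1b (TNFR2, which binds membrane TNF and recruits TRAFs) was the most abundant member in every group, at 174 to 177 FPKM in IL-27, 176 to 185 FPKM in IL-4 and 236 to 242 FPKM in untreated libraries. Tnfrsf1a (TNFR1, the death-domain receptor for TNF) came second, at 79.0 to 83.0 FPKM in IL-27, 74.8 to 89.7 FPKM in IL-4 and 88.2 to 99.4 FPKM in untreated libraries. Together these 2 receptors made up 61.5 ± 0.707% of the FPKM of all 30 members in IL-27, 72.1 ± 1.18% in IL-4 and 75.3 ± 1.79% in untreated libraries (SD, n = 3 each). The remaining share was thus larger in each IL-27 library than in any IL-4 or untreated library.

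Below them the order of levels in untreated libraries was Tnfsf12 (mean 25.7 FPKM), Tnfrsf12a (18.3), Tnfrsf21 (17.3), Tnfrsf26 (12.4), Tnfrsf14 (11.6), Tnfrsf13b (10.5), Tnfsf13 (4.20) and Tnfrsf23 (3.26 FPKM). Among these neighbours the library ranges overlapped between Tnfrsf12a and Tnfrsf21, between Tnfrsf26 and Tnfrsf14 and between Tnfrsf14 and Tnfrsf13b, so their order there is not resolved. In IL-27 libraries Tnfsf12 (37.4 FPKM), Tnfrsf12a (34.6) and Tnfrsf26 (33.3) followed TNFR1, and the ranges of neighbours among these 3 overlapped. In IL-4 libraries Tnfrsf12a (20.3 FPKM), Tnfsf12 (19.9), Tnfrsf21 (16.7) and Tnfrsf26 (15.1) followed, again with overlap between neighbours. The summed FPKM of all members was 416 ± 4.58 in IL-27, 363 ± 11.2 in IL-4 and 441 ± 0.636 in untreated libraries (SD, n = 3 each). In these bulk libraries, fewer cells of a type and less RNA per cell cannot be told apart.

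Under IL-27, 7 of the 17 well-measured members rose against untreated cells, 3 fell and 7 did not pass, with a median log2 fold change of 0.56. Over all 24 tested members the counts were 9 and 3, with a median of 0.29. The 9, and the 2 rises under IL-4 given below, include Tnfrsf19, which entered the test only through treated libraries. The 9 also include Tnfsf8, which passed the count filter only through IL-27 libraries, where it was highest. Among all genes tested, 29.2% were called, 14.0% as higher and 15.1% as lower, with a median of 0.00. Receptors that rose were Tnfrsf26, Tnfrsf23, Tnfrsf12a, Tnfrsf10b and Tnfrsf11b, and ligands that rose were Tnfsf12 and Tnfsf9, while Tnfrsf1b, Tnfrsf13b and the ligand Tnfsf13b fell. Under IL-4 only Tnfrsf11b of the 17 rose against untreated cells, Tnfrsf14, Tnfrsf1b, Tnfsf12 and Tnfsf15 fell, and 12 did not pass. The tested 24 held 2 rises and 4 falls there, with a median of -0.03, and among all genes 25.0% were called, 12.9% as higher and 12.0% as lower, with a median of -0.01. IL-27 against IL-4 gave 8 higher, 2 lower and 7 not passed among the 17, and 9 and 4 among the 24, where 39.8% of all genes were called, 18.8% as higher and 21.0% as lower (medians 0.37 over the 24 and 0.01 over all genes). Of the 9, Tnfsf8 passed the filter only through IL-27 libraries, and of the 4, Tnfsf10 and Tnfrsf18 did so only through IL-4 libraries. So the filter favoured these differences. The 8 include Tnfsf15, which reached 1 CPM only through its IL-27 libraries. The counts among tested members without the pair that stands apart were 11 higher and 5 lower for IL-27 against untreated, where 24.2% of all genes tested were called higher and 25.3% lower. They were 3 and 6 for IL-4 against untreated, with 24.0% and 22.3% of all genes, and 12 and 4 for IL-27 against IL-4, with 27.9% and 30.3%.

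**Figure D1:**
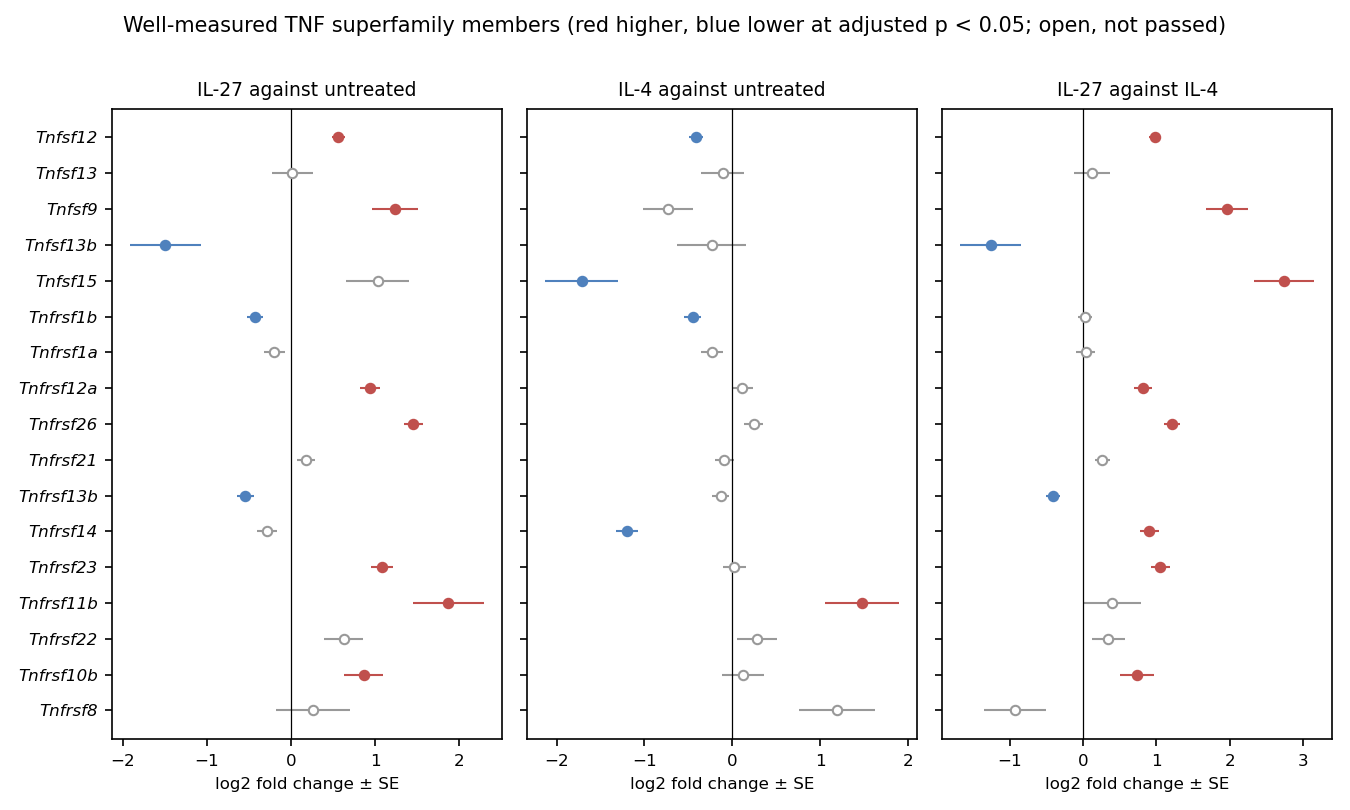
Log2 fold changes of the 17 well-measured TNF superfamily members, ligands above receptors, with bars of 1 standard error from edgeR's fit, in panels for IL-27 against untreated, IL-4 against untreated and IL-27 against IL-4. Filled red points rose and filled blue points fell at an adjusted p under 0.05, and open points did not pass. In the first panel 7 points are red and 3 blue, in the second 1 is red and 4 are blue, and in the third 8 are red and 2 blue.

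The plot of fold changes shows short bars for abundant members such as Tnfsf12, Tnfrsf1b and Tnfrsf26, with standard errors of 0.08 to 0.11 for IL-27 against untreated, and longer ones for lower members. Those of Tnfsf13b, Tnfrsf8 and Tnfrsf11b were 0.42 to 0.44. Level alone did not set their order, since Tnfrsf11b averaged 3.13 CPM and Tnfrsf10b, with 0.23, averaged 2.16 CPM. Receptors are described first and ligands after them.

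**Figure D2:**
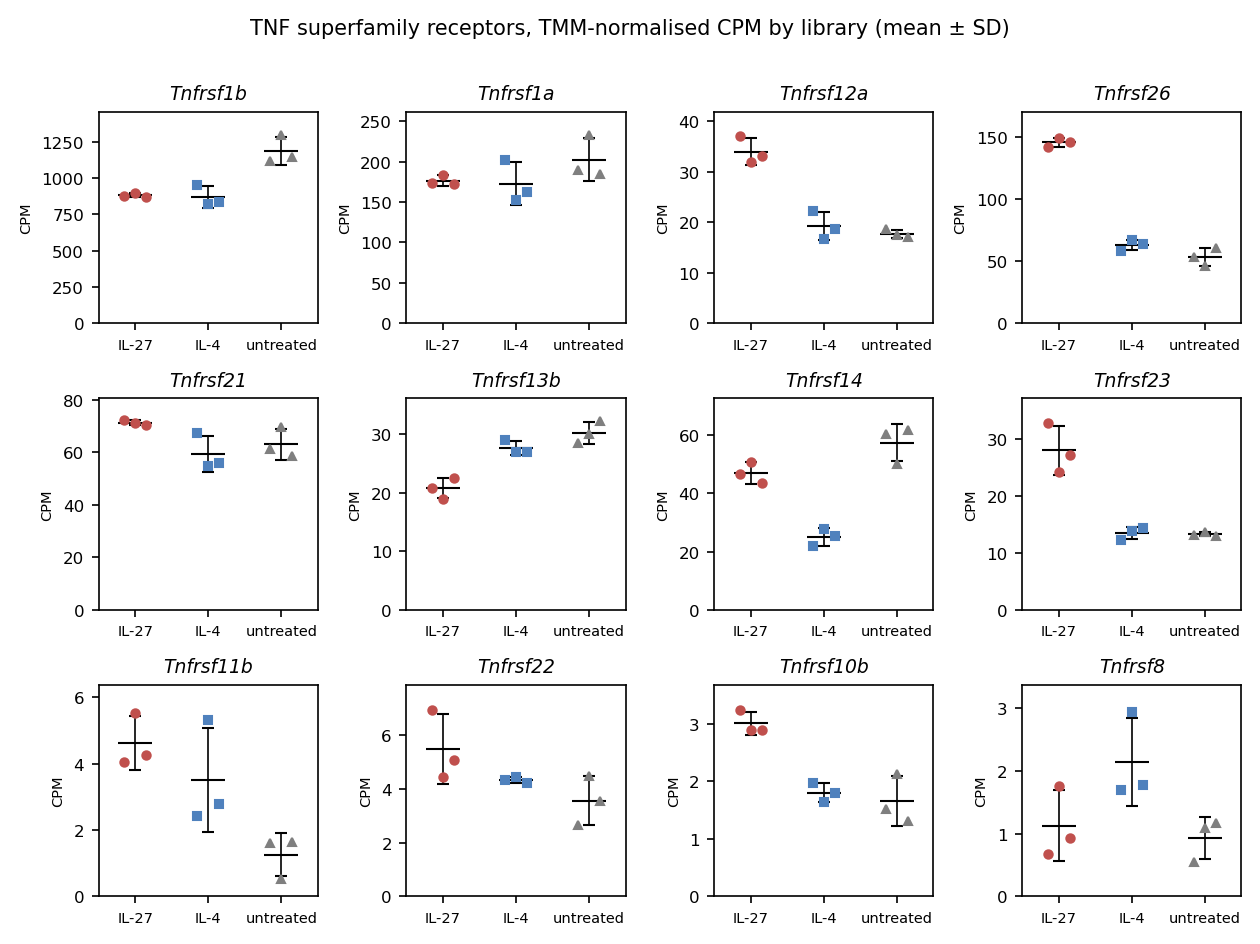
CPM of the 12 well-measured receptors in each of the 9 libraries, 1 panel per gene with its own vertical axis from 0, and with the libraries in the order IL-27, IL-4 and untreated. Points are libraries, and horizontal lines with bars are group means with their SD (n = 3). Tnfrsf26, Tnfrsf23, Tnfrsf12a and Tnfrsf10b sit highest in all 3 IL-27 libraries, Tnfrsf14 lowest in all 3 IL-4 libraries and Tnfrsf1b highest in all 3 untreated libraries.

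Among the TNF receptors, Tnfrsf1b stood at 877, 899 and 869 CPM in IL-27 libraries, 955, 819 and 832 CPM in IL-4 libraries and 1115, 1298 and 1146 CPM in untreated libraries. Every treated library lay below every untreated one. Tnfrsf1b fell 1.35-fold under IL-27 (log2 fold change -0.43 ± 0.09, adjusted p = 0.00706) and 1.37-fold under IL-4 (-0.45 ± 0.09, adjusted p = 0.00642). IL-27 and IL-4 libraries overlapped (log2 fold change 0.02 ± 0.09, adjusted p = 0.877). Its promoter is the one printed above with GAS and ISRE letters.

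Tnfrsf1a gave no call: it had 173, 184 and 173 CPM in IL-27 libraries, 203, 153 and 163 CPM in IL-4 libraries and 189.7, 233 and 185 CPM in untreated libraries. Its 2 highest values were those of the libraries that stand apart, untreated replicate 2 and IL-4 replicate 1. Without that pair Tnfrsf1a fell under IL-4 (log2 fold change -0.24, adjusted p = 0.000396) and was higher in IL-27 than in IL-4 (0.16, adjusted p = 0.00704), and without IL-4 replicate 1 alone it fell under IL-4 (-0.36, adjusted p = 0.0335). The ratio of Tnfrsf1b to Tnfrsf1a in FPKM was 2.18 ± 0.0399 in IL-27, 2.22 ± 0.144 in IL-4 and 2.57 ± 0.141 in untreated libraries (SD, n = 3 each).

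Among receptors that rose under IL-27, the smallest p-values were those of Tnfrsf26 and Tnfrsf23, which lie near each other and near Tnfrsf22 on mouse chromosome 7. In mice Tnfrsf22 and Tnfrsf23 bind TRAIL without a death domain and act as decoy receptors, and Tnfrsf26 is a related receptor that lacks a death domain too. Tnfrsf26 had 142, 149.5 and 146 CPM in IL-27 libraries, 58.4, 66.8 and 64.3 CPM in IL-4 libraries and 53.8, 45.8 and 60.3 CPM in untreated libraries. All 3 IL-27 libraries exceeded the other 6 by more than the whole spread of any group, while IL-4 and untreated libraries overlapped. Tnfrsf26 rose 2.74-fold under IL-27 (log2 fold change 1.45 ± 0.11, adjusted p = 1.109e-05) and was 2.31-fold higher in IL-27 than in IL-4 (1.21 ± 0.11, adjusted p = 1.648e-05). Against untreated cells IL-4 gave 0.24 ± 0.11 (adjusted p = 0.135), which passed without the pair of libraries that stands apart (0.20, adjusted p = 0.0104).

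Tnfrsf23 showed a like pattern at a lower level. Its values were 32.6, 24.1 and 27.1 CPM in IL-27 libraries, 12.2, 13.8 and 14.3 CPM in IL-4 libraries and 13.0, 13.6 and 13.0 CPM in untreated libraries. The lowest IL-27 library was above the highest of all others, and IL-4 libraries spanned the untreated ones. It rose 2.11-fold under IL-27 (log2 fold change 1.08 ± 0.13, adjusted p = 0.000203), was 2.08-fold higher in IL-27 than in IL-4 (1.05 ± 0.13, adjusted p = 0.000128), and gave 0.03 ± 0.13 for IL-4 (adjusted p = 0.910). Its promoter, printed above, held none of the 3 patterns.

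Tnfrsf22 was far lower, at 6.93, 4.44 and 5.06 CPM in IL-27 libraries, 4.31, 4.44 and 4.20 CPM in IL-4 libraries and 2.64, 4.49 and 3.54 CPM in untreated libraries. The groups overlapped, and its log2 fold change of 0.62 ± 0.23 under IL-27 did not pass (adjusted p = 0.0673). Without the 2 libraries that stand apart it was 0.82 (adjusted p = 0.00403), and without untreated replicate 2 alone 0.82 (adjusted p = 0.028). Summed in FPKM, the 3 receptors of chromosome 7 reached 41.1 ± 0.691 in IL-27, 19.3 ± 2.36 in IL-4 and 16.3 ± 2.46 in untreated libraries (SD, n = 3 each). They are close copies, and since no source used here gives the handling of reads shared between copies, the split of reads among the 3 is uncertain.

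Tnfrsf10b, the mouse TRAIL receptor that has a death domain, was measured at 3.24, 2.90 and 2.90 CPM in IL-27 libraries, 1.97, 1.65 and 1.81 CPM in IL-4 libraries and 1.53, 2.14 and 1.31 CPM in untreated libraries. IL-27 libraries did not overlap the others. It rose 1.82-fold under IL-27 (log2 fold change 0.86 ± 0.23, adjusted p = 0.0194) and was 1.67-fold higher in IL-27 than in IL-4 (0.74 ± 0.23, adjusted p = 0.0281). Both calls were lost on leaving out single libraries, while the log2 fold changes stayed at 0.72 to 0.88 and at 0.67 to 0.77 in those fits. The rise over untreated cells had an adjusted p of 0.0643 without untreated replicate 1, 0.0679 without untreated replicate 3, 0.0682 without IL-27 replicate 1 and 0.0516 without IL-27 replicate 3, and the difference from IL-4 one of 0.0615 to 0.0890 without IL-4 replicate 2 or 3 or any IL-27 library.

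Tnfrsf12a encodes Fn14, the receptor of the ligand TWEAK, which injured and growing tissue raises. It had 37.1, 31.9 and 33.1 CPM in IL-27 libraries, 22.2, 16.7 and 18.8 CPM in IL-4 libraries and 18.7, 17.6 and 17.0 CPM in untreated libraries. IL-27 libraries stood clear of the rest, and IL-4 and untreated libraries overlapped. Tnfrsf12a rose 1.92-fold under IL-27 (log2 fold change 0.94 ± 0.12, adjusted p = 0.000357), was 1.77-fold higher in IL-27 than in IL-4 (0.82 ± 0.12, adjusted p = 0.000465), and gave 0.12 ± 0.12 for IL-4 (adjusted p = 0.544).

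Tnfrsf11b is osteoprotegerin, a secreted decoy that keeps the osteoclast factor Tnfsf11 from its receptor. It was found at 4.06, 5.54 and 4.27 CPM in IL-27 libraries, 2.43, 5.32 and 2.80 CPM in IL-4 libraries and 1.61, 0.512 and 1.65 CPM in untreated libraries. Both treated groups lay above all untreated libraries, and they overlapped each other. Tnfrsf11b rose 3.65-fold under IL-27 (log2 fold change 1.87 ± 0.43, adjusted p = 0.00851) and 2.79-fold under IL-4 (1.48 ± 0.43, adjusted p = 0.0297). The call under IL-4 rested on IL-4 replicate 2: without it the log2 fold change was 1.05 (adjusted p = 0.111), and with only IL-4 and untreated libraries in the fit the adjusted p was 0.0821. Untreated replicate 2, the lowest library, and IL-4 replicate 1 both lay below their group means.

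Osteoprotegerin and Fn14 are made by fibroblasts and other stromal cells as well, and fibroblast markers differed between the groups. All 4 fibroblast markers exceeded 1 CPM, and their summed level ranged over 1025 to 1272 CPM in IL-27, 500 to 704 CPM in IL-4 and 667 to 760 CPM in untreated libraries. Col1a1 averaged 457, 289 and 320 CPM, Dcn 34.6, 5.75 and 7.64 CPM and Pdgfra 7.99, 3.25 and 4.64 CPM in IL-27, IL-4 and untreated libraries. Of 4 endothelial markers 2 exceeded 1 CPM, and their summed level was 23.1 to 28.7 CPM in IL-27, 10.5 to 11.1 CPM in IL-4 and 7.51 to 10.2 CPM in untreated libraries. Both marker sums were thus highest in IL-27 libraries, as were Tnfrsf26, Tnfrsf23, Tnfrsf12a and Tnfrsf10b. The part of these markers in those results was not tested.

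Tnfrsf14, which encodes HVEM, a receptor for the ligand LIGHT and for the lymphocyte inhibitor BTLA, was the receptor that fell most under IL-4. It had 46.7, 50.9 and 43.6 CPM in IL-27 libraries, 21.9, 27.9 and 25.5 CPM in IL-4 libraries and 60.4, 50.0 and 61.9 CPM in untreated libraries. All IL-4 libraries lay far below the others, while IL-27 and untreated libraries overlapped. Tnfrsf14 fell 2.29-fold under IL-4 (log2 fold change -1.19 ± 0.13, adjusted p = 0.000108) and was 1.87-fold higher in IL-27 than in IL-4 (0.91 ± 0.12, adjusted p = 0.000273). IL-27 against untreated gave -0.29 ± 0.12 (adjusted p = 0.108). That value was -0.38 without the pair that stands apart (adjusted p = 8.54e-05) and -0.38 without untreated replicate 2 alone (adjusted p = 0.04), where it passed. The ISRE letters of its promoter are printed above.

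Tnfrsf13b encodes TACI, the receptor shared by BAFF and APRIL and best known in B cells. It was present at 20.7, 19.0 and 22.5 CPM in IL-27 libraries, 28.9, 26.9 and 26.9 CPM in IL-4 libraries and 28.4, 30.0 and 32.1 CPM in untreated libraries. Every IL-27 library lay below all others, and IL-4 and untreated libraries overlapped. Tnfrsf13b fell 1.46-fold under IL-27 (log2 fold change -0.54 ± 0.10, adjusted p = 0.00276) and was 1.33-fold lower in IL-27 than in IL-4 (-0.41 ± 0.10, adjusted p = 0.0088), and IL-4 gave -0.13 ± 0.10 against untreated (adjusted p = 0.381). Among B cell markers, Cd79b averaged 0.457, 1.51 and 2.81 CPM in IL-27, IL-4 and untreated libraries, Cd79a 0.375, 0.101 and 0.114 CPM and Pax5 0.282, 0.0447 and 0.0185 CPM. All were far below Tnfrsf13b, and their part in its fall was not tested.

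Of the other well-measured receptors, Tnfrsf21 (DR6, which has a death domain) had 72.2, 71.2 and 70.5 CPM in IL-27 libraries, 67.2, 54.9 and 55.9 CPM in IL-4 libraries and 61.1, 69.7 and 58.5 CPM in untreated libraries. IL-27 libraries were higher than all others, yet by little, and neither the difference from untreated (log2 fold change 0.18 ± 0.11, adjusted p = 0.243) nor that from IL-4 (0.26 ± 0.11, adjusted p = 0.0727) passed. Without the pair that stands apart both did (0.25, adjusted p = 0.00096, and 0.35, adjusted p = 1.13e-05). The difference from IL-4 also passed without untreated replicate 2 (0.26, adjusted p = 0.048) and without IL-4 replicate 1 (0.36, adjusted p = 0.0149).

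Tnfrsf8 is CD30, a receptor of activated lymphocytes. It was low, at 0.682, 1.77 and 0.930 CPM in IL-27 libraries, 1.70, 2.95 and 1.78 CPM in IL-4 libraries and 0.556, 1.08 and 1.17 CPM in untreated libraries. IL-4 libraries lay above all untreated ones and overlapped the IL-27 libraries. The log2 fold changes of 1.19 ± 0.43 for IL-4 against untreated (adjusted p = 0.0707) and -0.93 ± 0.42 for IL-27 against IL-4 (adjusted p = 0.109) did not pass. They were 1.45 (adjusted p = 0.0186) and -1.08 (adjusted p = 0.0352) without the pair that stands apart, and the second was -1.41 (adjusted p = 0.0397) without IL-27 replicate 2.

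**Figure D3:**
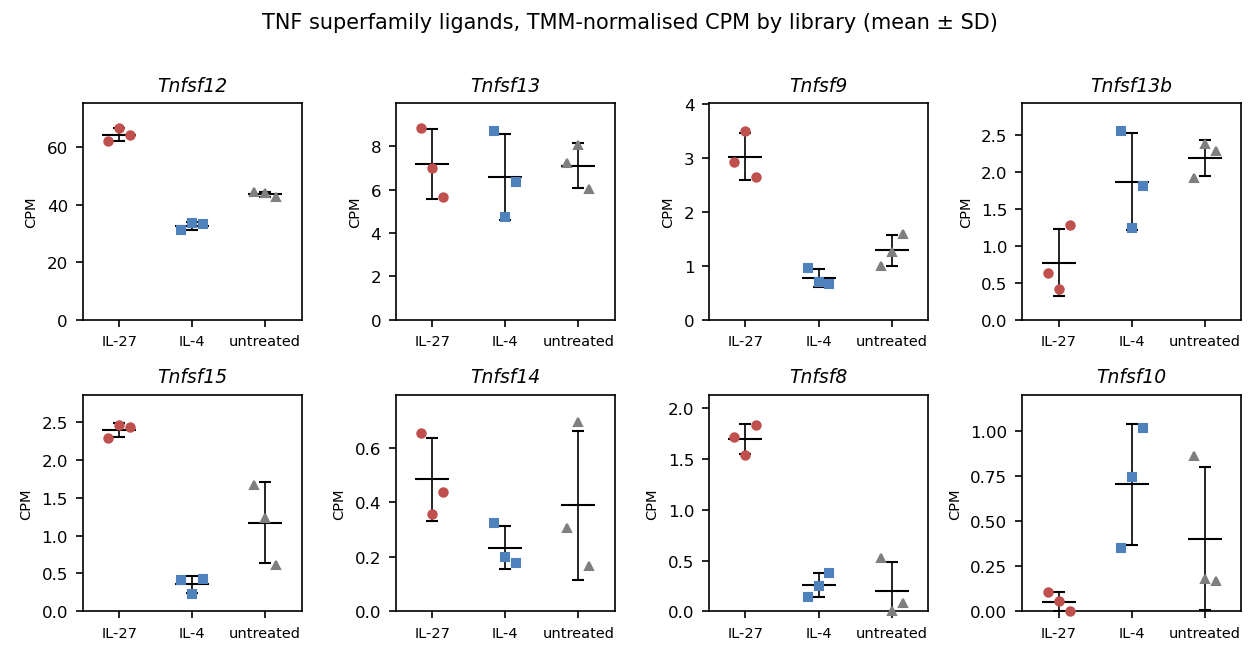
CPM of the 5 well-measured ligands and of Tnfsf14, Tnfsf8 and Tnfsf10 in each of the 9 libraries, 1 panel per gene with its own vertical axis from 0, and with the libraries in the order IL-27, IL-4 and untreated. Points are libraries, and horizontal lines with bars are group means with their SD (n = 3). Tnfsf12 forms 3 separate levels, highest in IL-27 and lowest in IL-4, and Tnfsf9 and Tnfsf15 are highest in the IL-27 libraries.

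Tnfsf12 was the most abundant ligand by far and the only one of the 24 tested genes called in opposite directions by the cytokines. It encodes TWEAK, the ligand of Fn14. Its level was 62.3, 66.7 and 64.4 CPM in IL-27 libraries, 31.2, 33.7 and 33.4 CPM in IL-4 libraries and 44.3, 44.1 and 42.6 CPM in untreated libraries. The groups formed 3 separate levels with no overlap. Tnfsf12 rose 1.48-fold under IL-27 (log2 fold change 0.56 ± 0.08, adjusted p = 0.000629), fell 1.33-fold under IL-4 (-0.41 ± 0.08, adjusted p = 0.0046) and was 1.97-fold higher in IL-27 than in IL-4 (0.98 ± 0.08, adjusted p = 9.309e-06).

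The ratio of Fn14 to TWEAK messages in FPKM was 0.928 ± 0.105 in IL-27, 1.04 ± 0.194 in IL-4 and 0.713 ± 0.0221 in untreated libraries (SD, n = 3 each), and all untreated libraries lay below all treated ones. Tnfsf12 lies next to Tnfsf13 (APRIL, a B cell survival ligand), and a read-through gene and an antisense RNA overlap them in RefSeq. No source used here tells whether counting used strand, so reads of these neighbours cannot be told apart. Tnfsf13 itself gave no call and its groups overlapped, with means of 7.18 ± 1.61 CPM in IL-27, 6.60 ± 1.98 CPM in IL-4 and 7.11 ± 1.03 CPM in untreated libraries (SD, n = 3 each). Its log2 fold changes were 0.01 ± 0.24 for IL-27 and -0.11 ± 0.24 for IL-4 against untreated (adjusted p = 0.972 and 0.789).

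Tnfsf13b encodes BAFF, the other ligand of TACI. It had 0.627, 0.414 and 1.29 CPM in IL-27 libraries, 2.55, 1.25 and 1.81 CPM in IL-4 libraries and 1.92, 2.38 and 2.29 CPM in untreated libraries. IL-27 libraries lay below all untreated ones, and IL-27 replicate 3 overlapped IL-4 replicate 2. Tnfsf13b fell 2.82-fold under IL-27 (log2 fold change -1.50 ± 0.42, adjusted p = 0.0229) and was 2.40-fold lower in IL-27 than in IL-4 (-1.26 ± 0.42, adjusted p = 0.0365). The fall against untreated was not called without untreated replicate 3 (adjusted p = 0.0556), IL-27 replicate 1 (0.0842) or IL-27 replicate 2 (0.0762). The difference from IL-4 missed the threshold on leaving out untreated replicate 3, either of IL-4 replicates 1 and 3, or either of IL-27 replicates 1 and 2 (adjusted p from 0.052 to 0.116), and without the pair that stands apart (0.0611). So under IL-27 the TACI receptor and its ligand BAFF were both lower than in untreated cells, and its other ligand, APRIL, was not called.

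Tnfsf9, the ligand of the T cell co-stimulatory receptor Tnfrsf9, was measured at 2.92, 3.50 and 2.65 CPM in IL-27 libraries, 0.968, 0.699 and 0.661 CPM in IL-4 libraries and 1.00, 1.26 and 1.59 CPM in untreated libraries. The groups did not overlap, with IL-27 highest and IL-4 lowest. It rose 2.35-fold under IL-27 (log2 fold change 1.23 ± 0.27, adjusted p = 0.00708) and was 3.90-fold higher in IL-27 than in IL-4 (1.96 ± 0.28, adjusted p = 0.000352), while IL-4 against untreated gave -0.73 ± 0.29 and did not pass (adjusted p = 0.0919).

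Tnfsf15 encodes TL1A, the ligand of the death-domain receptor Tnfrsf25. It had 2.29, 2.45 and 2.43 CPM in IL-27 libraries, 0.411, 0.225 and 0.432 CPM in IL-4 libraries and 1.67, 1.23 and 0.614 CPM in untreated libraries. Again the 3 groups did not overlap. Tnfsf15 fell 3.29-fold under IL-4 (log2 fold change -1.72 ± 0.42, adjusted p = 0.0137) and was 6.70-fold higher in IL-27 than in IL-4 (2.74 ± 0.41, adjusted p = 0.000478), the largest difference between the cytokines among well-measured members. That rank depends on the limit of 1 CPM, which Tnfsf15 passed only through its IL-27 libraries. Under the limit, Tnfsf10 differed 12.3-fold, being lower in IL-27. Against untreated cells IL-27 gave 1.03 ± 0.37 (adjusted p = 0.0617), which passed without untreated replicate 1 (1.37, adjusted p = 0.0393) and without the pair that stands apart (1.06, adjusted p = 0.0434). The fall under IL-4 was not called without untreated replicate 1 (-1.37, adjusted p = 0.0577) or IL-4 replicate 2 (-1.47, adjusted p = 0.0505), or with only IL-4 and untreated libraries in the fit (-1.71, adjusted p = 0.0522).

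Endothelial cells are a known source of TL1A, and their marker sums, given above, were highest in IL-27 libraries. Kdr averaged 23.7, 2.35 and 5.33 CPM and Pecam1 0.894, 7.64 and 2.66 CPM in IL-27, IL-4 and untreated libraries, so these markers did not share an order. Their part in the values of Tnfsf15 was not tested.

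Of the 13 members under the limit of 1 CPM, 7 could be tested. Tnfsf8, the ligand of CD30, had 186 counts in all IL-27 libraries together, 30 in IL-4 and 22 in untreated libraries, or 1.72, 1.54 and 1.83 CPM against 0.147, 0.250 and 0.382 CPM and 0.528, 0 and 0.0837 CPM. The IL-27 libraries stood above all others. Outside IL-27 too few libraries reached the minimum count, scaled to library size, so the filter itself favoured a higher level in IL-27. Tnfsf8 rose under IL-27 (log2 fold change 3.02 ± 0.80, adjusted p = 0.0176) and was higher in IL-27 than in IL-4 (2.68 ± 0.77, adjusted p = 0.0192), with count ratios of 8.11 and 6.42 (exact 95% intervals 5.20 to 13.3 and 4.35 to 9.79, counting error only). Without untreated replicate 1 the first value was 5.19. With no filter on low counts both calls stayed. The first call was lost without untreated replicate 3 or IL-27 replicate 1 or 3 (adjusted p from 0.0508 to 0.061), and the second without IL-4 replicate 2 or IL-27 replicate 1 or 3 (0.0513 to 0.0568).

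Tnfsf10 is TRAIL, the death ligand of Tnfrsf10b. It gave 6 counts in IL-27, 82 in IL-4 and 43 in untreated libraries together, and was lower in IL-27 than in IL-4 (log2 fold change -3.62 ± 0.95, adjusted p = 0.0127). The IL-27 libraries had 0.109, 0.0552 and 0 CPM, the IL-4 libraries 0.352, 0.749 and 1.02 CPM and the untreated libraries 0.862, 0.181 and 0.167 CPM, so all IL-27 libraries were lowest. Tnfsf10 passed the count filter only through IL-4 libraries, so the filter itself favoured a higher level in IL-4. The call stayed with no filter on low counts. Without IL-27 replicate 1 the difference from IL-4 was -4.53. Against untreated the value was -2.81 ± 0.99 and did not pass (adjusted p = 0.0572). Untreated replicate 1 held most of the untreated counts, and without it the value was -1.61 (adjusted p = 0.257). It passed without untreated replicate 2 (-3.16, adjusted p = 0.0419), untreated replicate 3 (-3.18, adjusted p = 0.0484) or IL-4 replicate 1 (-2.81, adjusted p = 0.0429), and without the pair that stands apart (-3.16, adjusted p = 0.00529). The TRAIL message was thus scarce in every group, with means under 1 CPM, and lowest in IL-27, where its receptors Tnfrsf10b and Tnfrsf23 were highest. For TRAIL itself only the difference from IL-4 was called.

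Tnfrsf18 (GITR, a co-stimulatory receptor of T cells) had 0.191, 0.193 and 0.164 CPM in IL-27 libraries, 1.61, 0.499 and 0.687 CPM in IL-4 libraries and 0.639, 0.632 and 0.195 CPM in untreated libraries. It was lower in IL-27 than in IL-4 (log2 fold change -2.32 ± 0.62, adjusted p = 0.0135). Tnfrsf18 too passed the count filter only through IL-4 libraries, which favoured a higher level in IL-4. With no filter on low counts the call stayed. Of 5 T cell markers 3 were in the tables, all under 1 CPM, with a summed level of 0.0273 to 0.191 CPM in IL-27, 0 to 0.440 CPM in IL-4 and 0.0301 to 0.417 CPM in untreated libraries, and their part in this result was not tested. The call was lost without IL-4 replicate 1 (-1.68, adjusted p = 0.0538) or IL-27 replicate 3 (-2.26, adjusted p = 0.0519), and without the pair that stands apart the value was -1.69. Tnfrsf19 (TROY, a receptor known from the nervous system and skin) had only 31 counts in IL-27, 27 in IL-4 and 7 in untreated libraries together. Only IL-27 replicates 2 and 3 and IL-4 replicate 2, with 12 counts each, reached the minimum count of 10. Untreated libraries held 2, 2 and 3 counts, so the filter itself favoured a rise over untreated cells. Tnfrsf19 was called higher under IL-27 (2.03 ± 0.57, adjusted p = 0.0234) and under IL-4 (1.77 ± 0.58, adjusted p = 0.0493), but the calls were lost in 8 and 14 of 15 alternative fits. With no filter on low counts neither call passed (adjusted p = 0.0734 and 0.133). The first was lost without any 1 untreated library or without IL-27 replicate 2 or 3 (adjusted p from 0.0554 to 0.0818), and the second without any 1 of the 9 libraries (0.0621 to 0.151). Without the pair that stands apart neither was called (0.0889 and 0.132).

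Tnfsf14 (LIGHT, the ligand of HVEM), Tnfrsf4 (the T cell receptor OX40) and Tnfrsf9 were tested and gave no call, with 53, 49 and 21 counts in IL-27, 26, 62 and 12 counts in IL-4 and 40, 41 and 37 counts in untreated libraries together. Tnfrsf9 was called lower under IL-4 only without IL-4 replicate 1 (adjusted p = 0.0304) or without the pair that stands apart (0.000829), when the IL-4 libraries left have 0 counts, and it was then higher in IL-27 than in IL-4 without the pair (0.00719). The other 6 had too few counts for the test. Tnfrsf13c (the BAFF receptor) had 22 counts in IL-27, 18 of them in replicate 2, against 4 in IL-4 and 1 in untreated libraries. Tnfrsf17 (the plasma cell receptor BCMA) had 6, 4 and 19, Tnfrsf25 2, 10 and 5, and Tnfsf4 (the ligand of OX40) 7, 18 and 2 counts in IL-27, IL-4 and untreated libraries. The osteoclast ligand Tnfsf11 had 8, 0 and 4 counts, and Tnfsf18 (the ligand of GITR) 3, 0 and 4.

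**Figure D4:**
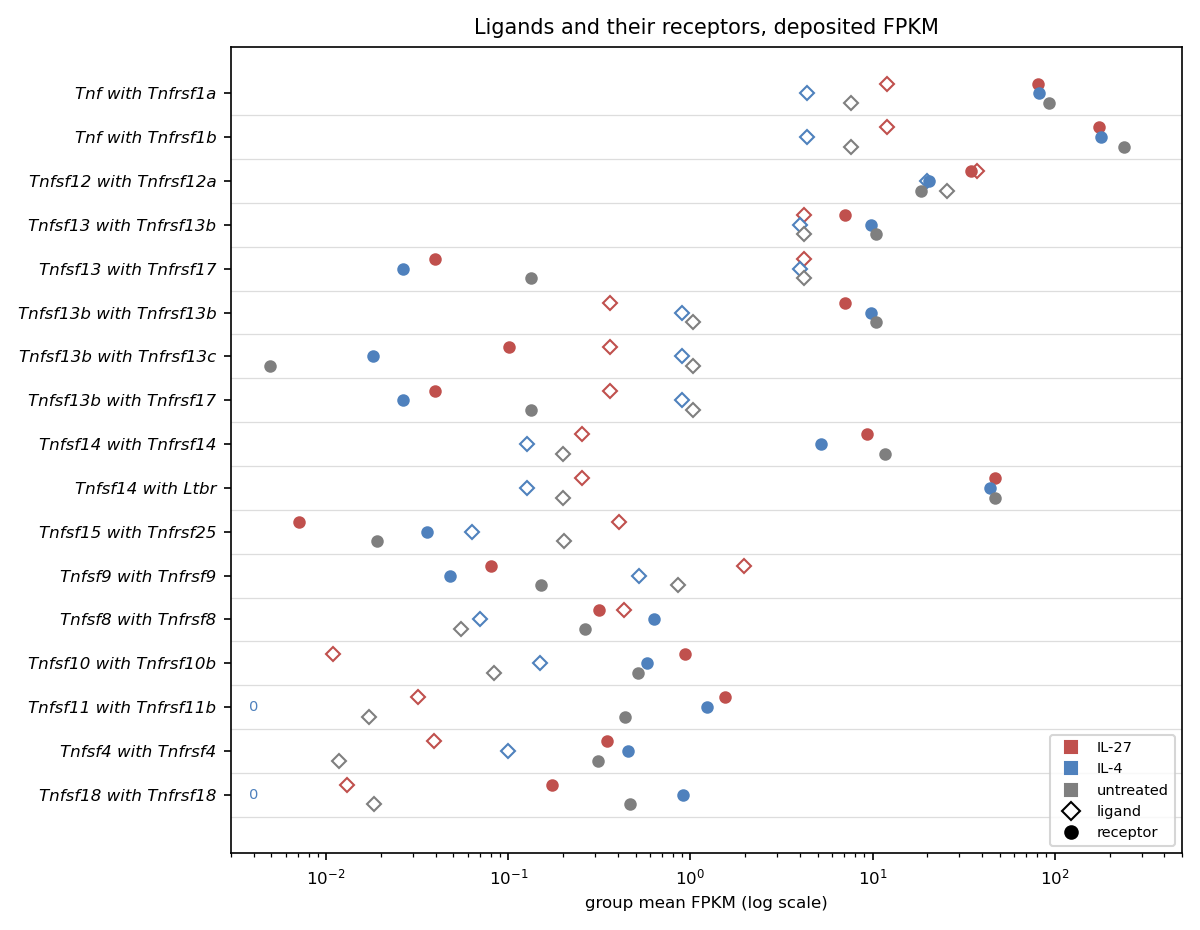
Mean FPKM per group, on a log axis, of ligand and receptor in 17 textbook pairs, 1 row per pair, with IL-27 in red, IL-4 in blue and untreated in grey. Open diamonds are ligands, filled circles receptors, and a 0 marks a gene listed at 0 (Tnfsf11 and Tnfsf18 in IL-4). Receptors lie far to the right of ligands for TRAIL, LIGHT and the osteoclast ligand, while Tnfsf12 and its receptor lie close together. The osteoclast ligand is paired here with the decoy osteoprotegerin.

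Seen as ligand and receptor pairs, both partners were well measured in 5 of 17 textbook pairs, only the receptor in 5, only the ligand in 5 and neither in 2. These counts depend on the pairs chosen. Tnfsf11 was paired with its decoy osteoprotegerin, and TRAIL with Tnfrsf10b but not with Tnfrsf22 or Tnfrsf23. Pairs with both partners were TNF with each of its receptors, TWEAK with Fn14, and APRIL and BAFF with TACI. The plot of pairs shows HVEM at mean levels of 9.34, 5.22 and 11.6 FPKM in IL-27, IL-4 and untreated libraries, against 0.254, 0.126 and 0.201 FPKM for LIGHT. Osteoprotegerin averaged 1.55, 1.24 and 0.436 FPKM in the same order, whereas Tnfsf11 had 0.0320 FPKM in IL-27, was listed at 0 in IL-4 and had 0.0171 FPKM in untreated libraries. For Tnfsf9 and Tnfsf15 the ligand was the higher partner: Tnfsf9 averaged 1.98, 0.525 and 0.852 FPKM and Tnfrsf9 0.0803, 0.0477 and 0.151 FPKM in IL-27, IL-4 and untreated libraries.

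Ligands and receptors of the family with other symbols were few. Of 7 such ligands 3 were tested, and 1, Tnf, rose under IL-27 and fell under IL-4, with 20.2 ± 0.696 CPM in IL-27, 7.07 ± 0.611 CPM in IL-4 and 12.7 ± 0.863 CPM in untreated libraries (SD, n = 3 each). Its log2 fold changes were 0.67 ± 0.11 (adjusted p = 0.00159) and -0.85 ± 0.12 (adjusted p = 0.000528). Tnf thus moved in the same directions as TWEAK, while Tnfrsf1b fell under both cytokines. Of 8 receptors with other symbols 5 were tested: under IL-27 Eda2r, a receptor for ectodysplasin A2, rose (1.74 ± 0.39, adjusted p = 0.00748) and 4 did not pass, and under IL-4 Cd40, the receptor for T cell help, rose (1.30 ± 0.24, adjusted p = 0.00352) and 4 did not pass. In IL-27 against IL-4, Eda2r was higher (adjusted p = 0.00403), Cd40 lower (adjusted p = 0.000854) and 3 did not pass. With the pair that stands apart left out, 1 of these receptors rose and 1 fell under IL-27, 1 rose and 2 fell under IL-4, and 2 were higher and 1 lower in IL-27 than in IL-4. DESeq2 called 1 fall under IL-4.

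**Figure D5:**
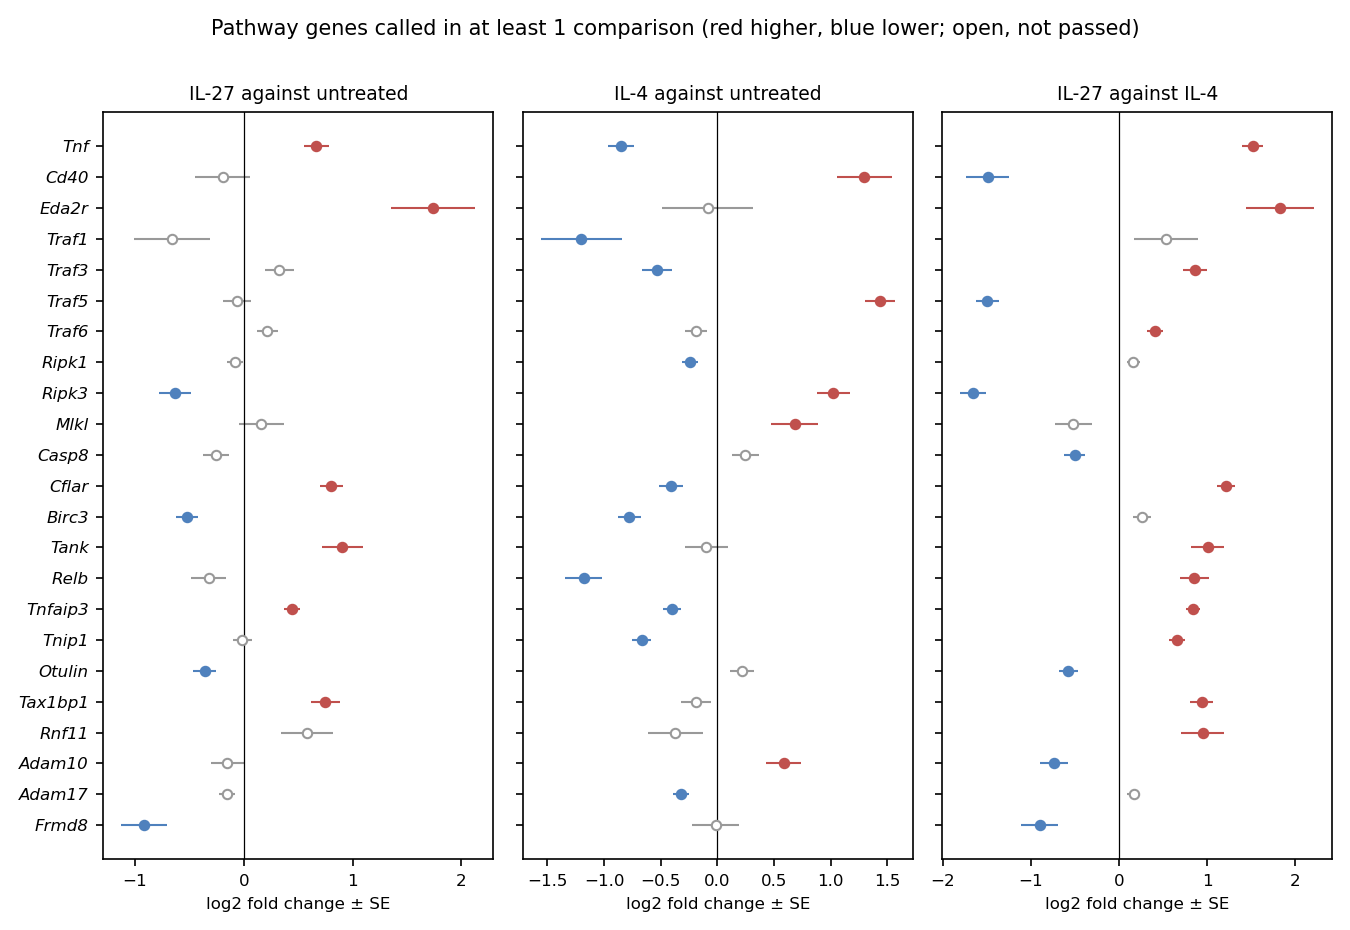
Log2 fold changes with bars of 1 standard error for the 23 genes of the pathway lists that were called in at least 1 comparison, ordered by list, in panels for IL-27 against untreated, IL-4 against untreated and IL-27 against IL-4. Filled red points rose, filled blue points fell and open points did not pass. Cflar, Tnfaip3 and Tnf are red in the first and blue in the second panel, and Ripk3 is the reverse.

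Of all genes tested, 29.2% were called under IL-27, 25.0% under IL-4 and 39.8% in IL-27 against IL-4. These shares apply to the members with other symbols above and to every gene list below. Downstream of the receptors, 16 adaptors and death-complex genes were tested. Under IL-27, 2 rose, 2 fell and 12 did not pass: Cflar, the caspase-8 inhibitor cFLIP (log2 fold change 0.81 ± 0.11, adjusted p = 0.000339), and the TRAF-binding Tank (0.91 ± 0.19, adjusted p = 0.00581) rose, and Birc3, the ubiquitin ligase cIAP2 (-0.52 ± 0.10, adjusted p = 0.00362), and the necroptosis kinase Ripk3 (-0.63 ± 0.15, adjusted p = 0.00939) fell. Under IL-4, 3 rose, 5 fell and 8 did not pass. Rises were Traf5 (1.44 ± 0.13, adjusted p = 4.367e-05), Ripk3 (1.02 ± 0.14, adjusted p = 0.00068) and Mlkl, the pore former of necroptosis (0.68 ± 0.21, adjusted p = 0.0387), and the falls with the smallest p were Birc3 (-0.78 ± 0.10, adjusted p = 0.000429), Traf3 (-0.53 ± 0.13, adjusted p = 0.015), Cflar (-0.41 ± 0.10, adjusted p = 0.0181) and Traf1 (-1.20 ± 0.36, adjusted p = 0.0344). The remaining fall was Ripk1. Ripk3 averaged 6.05 CPM in IL-27, 19.1 CPM in IL-4 and 9.40 CPM in untreated libraries, and Cflar 163, 70.5 and 93.4 CPM.

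In IL-27 against IL-4, where 39.8% of all genes were called, 4 of the 16 were higher, 3 lower and 9 not passed. Cflar (log2 fold change 1.21, adjusted p = 1.224e-05), Traf3 (0.86, adjusted p = 0.00056), Tank (1.00, adjusted p = 0.00221) and Traf6 (0.41, adjusted p = 0.00672) were higher in IL-27, and Traf5 (-1.50, adjusted p = 1.181e-05), Ripk3 (-1.66, adjusted p = 1.434e-05) and Casp8 (-0.50, adjusted p = 0.00816) lower. Without the pair that stands apart, when the shares of all genes called were those given above for that fit, 4 rose and 3 fell under IL-27, 5 rose and 7 fell under IL-4, and 6 were higher and 4 lower in IL-27 than in IL-4. Several calls of this list under IL-4 were lost when single libraries were left out, among them IL-27 libraries, which are not in that comparison. Without any 1 IL-27 library Ripk1 still gave -0.24 and Mlkl 0.68, as in the fit of all libraries. Cflar was lost without untreated replicate 1 (adjusted p = 0.0627) or 3 (0.0654), Traf1 without untreated replicate 1 or 3 or any IL-4 library (0.0645 to 0.0959), Ripk1 without any 1 library other than untreated replicate 2 (0.0578 to 0.121), and Mlkl without any 1 library other than untreated replicate 3 or IL-4 replicate 1 (0.0563 to 0.136).

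Of 4 genes of noncanonical NF-kappa-B signalling, the branch used by the BAFF receptor, the lymphotoxin-beta receptor and CD40, edgeR called 0 under IL-27 against untreated, where 1 was lower at an unadjusted p under 0.05 and DESeq2 called 1 lower. Relb fell under IL-4 (log2 fold change -1.18 ± 0.16, adjusted p = 0.000589) and was higher in IL-27 than in IL-4 (0.85, adjusted p = 0.0021), with means of 21.0 CPM in IL-27, 11.6 CPM in IL-4 and 26.3 CPM in untreated libraries. Without the pair that stands apart, 1 rose and 1 fell under IL-27, 3 fell under IL-4 and 3 were higher in IL-27 than in IL-4.

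Among 8 ubiquitin editors that limit the signal, Tnfaip3 (A20; 0.44 ± 0.08, adjusted p = 0.00197) and its partner Tax1bp1 (0.75 ± 0.13, adjusted p = 0.00214) rose under IL-27, Otulin fell (-0.36 ± 0.11, adjusted p = 0.0301) and 5 did not pass. Under IL-4 Tnfaip3 (-0.40 ± 0.08, adjusted p = 0.00433) and Tnip1 (-0.67 ± 0.09, adjusted p = 0.00042) fell and 6 did not pass. Between the cytokines 4 were higher in IL-27 (Tnfaip3, Tax1bp1, Tnip1 and Rnf11, log2 fold changes 0.84, 0.94, 0.66 and 0.95), Otulin was lower (-0.58) and 3 did not pass. The shares of all genes called in these comparisons were 29.2%, 25.0% and 39.8%, in that order. The fall of Otulin under IL-27 was not called without untreated replicate 2 or any IL-27 library (adjusted p from 0.0572 to 0.117). In the fit without the pair that stands apart, 4 editors rose and 2 fell under IL-27, 1 rose and 5 fell under IL-4, and 5 were higher and 2 lower in IL-27 than in IL-4, against 27.9% and 30.3% of all genes in that last comparison.

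Of 8 genes that process ligands and receptors at the membrane, Frmd8, which keeps the sheddase complex stable, fell under IL-27 (log2 fold change -0.92 ± 0.21, adjusted p = 0.00881) and 7 did not pass. Under IL-4 the sheddase Adam10 rose (0.59 ± 0.15, adjusted p = 0.0201), the TNF-converting enzyme Adam17 fell (-0.32 ± 0.07, adjusted p = 0.00961) and 6 did not pass. Adam10 (-0.74, adjusted p = 0.00387) and Frmd8 (-0.90, adjusted p = 0.00679) were lower in IL-27 than in IL-4, and 6 did not pass. Of all genes, 29.2%, 25.0% and 39.8% were called in these comparisons, in that order. The rise of Adam10 under IL-4 was not called without IL-4 replicate 2 (0.48, adjusted p = 0.0725) or 3 (0.54, adjusted p = 0.069). Leaving out the pair that stands apart gave 2 rises and 5 falls under IL-27 (24.2% and 25.3% of all genes), 1 rise and 3 falls under IL-4 (24.0% and 22.3%), and 3 genes higher and 3 lower in IL-27 than in IL-4 (27.9% and 30.3%). DESeq2 called 2 higher and 2 lower in the last comparison. The fall of Adam17 was not called with only the IL-4 and untreated libraries in the fit (adjusted p = 0.0527). Adam17 averaged 229, 204 and 254 CPM and Adam10 174, 291 and 194 CPM in IL-27, IL-4 and untreated libraries.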

How the data were processed

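The authors deposited 1 table of raw counts per gene and 1 of FPKM per gene for the 9 libraries. Per the submitters' processing notes, fastp, HISAT2, HTSeq and the build GRCm39 were used; no source used here gives versions, annotation, strand or the handling of shared reads. Division showed the deposited FPKM to be counts over length and library total. TMM CPM and tests came from edgeR 4.0.16 (R 4.3.3, filterByExpr with a minimum count of 10, glmQLFit over all 9 libraries, no covariate, Benjamini-Hochberg), and the standard error is the log2 fold change over the root of F. FPKM were described and not tested. Scripts were tested on simulated data. Members and gene lists were chosen with earlier results of these data known. Every tested member may be named. Of the other genes, those called were named, up to 4 per list and comparison by smallest adjusted p. Alternatives were DESeq2 1.42.0, RLE factors, 2 other filters, 2-group fits, a replicate block, both treatments of the pair that stands apart, and each library left out.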

Additional observations from a re-analysis of the deposited data

How the results depend on the processing

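Each value was recomputed in 17 other fits, except that low-count genes dropped by a fit gave none. The count of members called higher under IL-4 (2 of 24) was 1 with no filter, 1 with CPM over 1 in 3 libraries, 0 with only 2 groups in the fit, 1 with a replicate block, and 0 to 1 on leaving out single libraries. Members lower under IL-27 against untreated (3) numbered 5 without untreated replicate 2 and IL-4 replicate 1, 5 with a term for that pair, and 2 to 5 on leaving out single libraries. Members lower in IL-27 than in IL-4 (4) numbered 2 with CPM over 1 in 3 libraries and 2 to 4 on leaving out single libraries. The other 3 counts moved by at most 1.5 times. Whether replicate numbers pair the samples was not settled. Same-numbered deviations correlated from -0.809 to 0.682 across genes. Untreated replicate 2 and IL-4 replicate 1 correlated at 0.906, and deviations within groups of 3 carry their departure into the other pairs of these groups. In pairs with an IL-27 library the values were -0.0066 to 0.0825 for the same number and -0.08 to 0.0716 for different numbers. The replicate block gave a log2 fold change of -0.0092 for Tnfsf13 (IL-27 against untreated) and ended the calls of Tnfrsf10b (IL-27 against IL-4, adjusted p 0.0573), Otulin (IL-27 against untreated, 0.0792) and, for IL-4 against untreated, Tnfrsf11b (0.0863), Tnfrsf19 (0.0899), Traf1 (0.0588), Ripk1 (0.102), Mlkl (0.0787) and Adam10 (0.0505). With it Tnfrsf8 passed for IL-4 against untreated (0.0404) and for IL-27 against IL-4 (0.0485). Without the pair that stands apart, Tnfrsf12a gave -0.0055 and Tnfrsf4 -0.63 for IL-4 against untreated, and Tnfrsf4 0.68 for IL-27 against IL-4 (0.18 with a term). On leaving out single libraries, log2 fold changes that changed sign spanned, for IL-27 against untreated, Tnfrsf4 -0.24 to 0.69, Tnfrsf8 -0.22 to 0.52, Tnfsf13 -0.17 to 0.15 and Tnfsf14 -0.0407 to 1.02. For IL-4 against untreated they spanned Tnfrsf4 -0.49 to 1.04, Tnfrsf10b -0.0211 to 0.35, Tnfrsf23 -0.022 to 0.0907, Tnfsf8 -0.22 to 2.51 and Tnfsf13 -0.36 to 0.0812. For IL-27 against IL-4 they spanned Tnfrsf1a -0.0493 to 0.16, Tnfrsf1b -0.021 to 0.092, Tnfrsf4 -0.82 to 0.68 and Tnfsf13 -0.0677 to 0.37. None of these was called in the fit reported above; the cause was not tested. Of all single-gene values 1766 kept their side of the threshold, 95 lost and 43 gained a call and 27 changed sign. Counts under about 1 CPM limit the low members.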
